A study of Homo sapiens with 12 samples.

Results

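The genes described here are 4 glutathione peroxidases (GPX1, GPX3, GPX4 and GPX8) and 4 other genes of ferroptosis (SLC7A11, AIFM2, ACSL4 and LPCAT3). They were chosen by symbol in the gene count table, with earlier results of these data known. All 8 were found there, of 58735 genes listed, and all 8 had enough reads to be tested in every comparison. The data were bulk RNA-seq read counts from 12 samples of HK-2, an established line of human kidney proximal tubular epithelial cells, in 4 groups of 3. The control group received H2O, the iohexol group received this iodinated contrast agent at 75 mg I/mL, the cisplatin group received this platinum chemotherapy drug at 5 μM, and the vancomycin group received this glycopeptide antibiotic at 4 mM. All groups were harvested 48 h after treatment began, and RNA with a poly-A tail was sequenced. The study looked for genes that 3 nephrotoxic drugs change in common. Every sample came from the same line, and the labels do not say whether replicates were separate cultures, so the p-values measure only the spread between these samples. Each drug was given at 1 dose for 1 time, so a difference between drugs is a difference between these doses.

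Ferroptosis is an iron-dependent cell death in which polyunsaturated phospholipids of membranes are peroxidised. GPX4 reduces phospholipid hydroperoxides with glutathione and is the main enzyme that holds this death back, while SLC7A11 brings in cystine, from which cells make glutathione. AIFM2 (also called FSP1) protects membranes independently of glutathione by reducing coenzyme Q. ACSL4 and LPCAT3 load polyunsaturated fatty acids into phospholipids and so supply the substrate that is peroxidised. The proximal tubule is a part of the kidney where ferroptosis has been described in acute injury.

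The libraries held between 14057282 and 18177109 counted reads. Values are given as CPM, the read count of a gene relative to the library's total count times a TMM factor, which ranged from 0.885 to 1.13. Control replicate 1 and Iohexol replicate 3 stood apart from the other libraries. In them, when genes were split into 5 equal bins of transcript GC content, genes of the highest bin lay lower than genes of the lowest bin, with median log2 deviations that differed by -0.475 and -0.572, against -0.0946 to 0.0474 in the other 4 control and iohexol libraries. The same difference was between -0.0529 and 0.0507 in the cisplatin libraries and between 0.226 and 0.526 in the vancomycin libraries. GPX1 (64.2% GC) and GPX4 (62.5%) are in the highest bin, GPX3, AIFM2 and LPCAT3 are in the next, and GPX8, ACSL4 (37.4%) and SLC7A11 (35.4%) are in the lowest. The fold changes were therefore also computed with the GC trend of each library removed (called the GC offset) and, in the comparisons that use the control or iohexol group, without the 2 libraries that stood apart. In the vancomycin group every library had the trend, so a drug effect and a library effect cannot be told apart. The GC offset removes both.

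The identity of the cells was checked with 11 markers of the proximal tubule. PAX8, a transcription factor of tubular epithelium, averaged between 131 and 617 CPM in the 4 groups. CDH6 and the brush border enzyme GGT1 were also well detected. Several other markers of the mature tubule were low or absent. SLC22A6 had 0 counts in every library and the endocytic receptor LRP2 had 0 to 3. The receptor CUBN, the brush border enzyme ANPEP, AQP1, SLC34A1 and SLC5A2 averaged under 5 CPM in each group. Of 11 markers of other cell types, PTPRC, CD3E, CD68, UMOD and AQP2 had at most 5 counts in any library, and COL1A1 alone averaged over 5 CPM, between 23.6 and 48.7 CPM. In CD68, 86.0% of the 31-base stretches also occur in other genes, so its low count does not show that it is absent. Of the tubule markers tested, 3 of 7 rose and 2 fell with iohexol, 4 of 6 fell with cisplatin, and 2 of 8 rose and 2 fell with vancomycin (edgeR adjusted p below the threshold of 0.05). Of the other markers, 1 of 2 rose with iohexol, 2 of 3 rose with cisplatin, and 3 of 4 rose and 1 fell with vancomycin. Shares of all genes tested that rose and fell were 11.2% and 9.77% with iohexol and 29.2% and 30.6% with cisplatin. With vancomycin these shares were 29% and 28.8%. The part of the markers in the results below was not tested.

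The 4 glutathione peroxidases are shown first around the codon of their catalytic residue, because this is where the family divides. In GPX1, GPX3 and GPX4 the codon is a UGA that is read as selenocysteine, so these enzymes depend on the selenoprotein machinery described further on, and in GPX8 the codon at the aligned place encodes cysteine. Each window is 30 bases of coding sequence, 5′ to 3′ on the strand of the gene, with the codon in capitals.
GPX1: gtggcgtccctcTGAggcaccacggtccgg
GPX3: gtggccagctacTGAggcctgacgggccag
GPX4: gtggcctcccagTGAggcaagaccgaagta
GPX8: gtggccagtgacTGCcaactcacagacaga
In GRCh38 the codons lie in coding exons at chr3:49358132-49358134 (GPX1, minus strand, codon 49 of the transcript), chr5:151025469-151025471 (GPX3, plus strand, codon 73), chr19:1105403-1105405 (GPX4, plus strand, codon 73) and chr5:55161024-55161026 (GPX8, plus strand, codon 79). For the first 3 genes the position is the selenocysteine of the annotation, and for GPX8 it was found by alignment to GPX4. The annotation carried in the count table gives GPX1 (ENSG00000233276) the biotype polymorphic pseudogene and the other genes the biotype protein coding.

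Cisplatin and vancomycin each changed 7 of the 8 genes compared with the control group, and iohexol changed 3. A gene was called when the adjusted p of edgeR's quasi-likelihood test, corrected over all genes tested, was below 0.05. With iohexol, GPX3, GPX4 and SLC7A11 rose and the other 5 were not called, where 21% of all genes tested were called (11.2% higher and 9.77% lower). With cisplatin, GPX1, GPX3 and AIFM2 rose and GPX4, GPX8, ACSL4 and SLC7A11 fell, against 59.8% called (29.2% higher and 30.6% lower). With vancomycin, GPX1, GPX3, GPX4, GPX8, AIFM2 and SLC7A11 rose and ACSL4 fell, against 57.9% called (29% higher and 28.8% lower). The libraries of the drug and the control group did not overlap for 5 of the 8 genes with iohexol, where this held for 37.9% of all genes, for 7 with cisplatin (65.1%) and for 7 with vancomycin (63.2%). The median log2 fold change of the 8 genes was 0.33 with iohexol, -0.10 with cisplatin and 0.68 with vancomycin, and that of all genes tested was 0.01, 0.01 and -0.01. These 3 comparisons share the control samples, and in bulk RNA a lower level per cell and a smaller share of the cells that express a gene cannot be told apart. The 3 calls with iohexol became 6 without Iohexol replicate 3, 5 with the GC offset and 7 without both libraries that stood apart. They became 2 when the replicate number was added to the fit (the replicate block). When single libraries were left out, the number called with iohexol was 2 to 6. With cisplatin and with vancomycin 7 of the 8 were called also without Control replicate 1. With the GC offset 6 were called with cisplatin and 6 with vancomycin, as ACSL4 lost its call. Scaled by total reads alone, 5 were called with cisplatin and 7 with vancomycin.

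**Figure D1:**
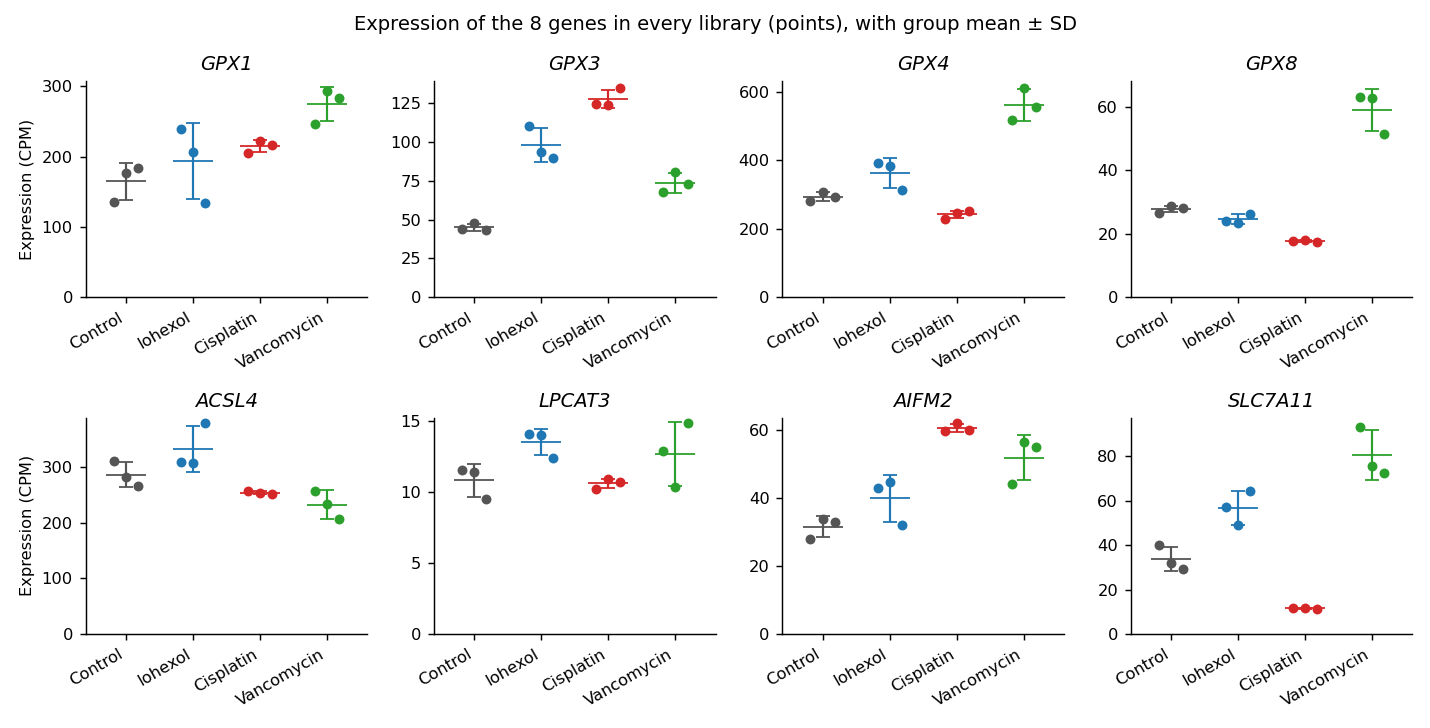
Expression of the 8 genes in CPM (vertical axes from 0) in the 4 groups; each point is 1 library, horizontal bars are group means and error bars are SD (n = 3). SLC7A11 lies between 11.3 and 11.8 CPM in the cisplatin libraries, below every control library, and between 72.4 and 93.2 CPM in the vancomycin libraries, above them; GPX4 has the same order.

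GPX4, the phospholipid hydroperoxide peroxidase (ENSG00000167468, chr19:1103926-1106791, plus strand), was measured at 282, 306 and 292 CPM in the control libraries. It was at 392, 383 and 314 CPM with iohexol, at 230, 245 and 251 CPM with cisplatin and at 518, 612 and 554 CPM with vancomycin. No library of any group overlapped with a library of another group. GPX4 rose 1.85-fold with vancomycin (log2 fold change 0.89 ± 0.0861 SE, edgeR adjusted p = 4.66e-09) and 1.25-fold with iohexol (0.33 ± 0.0986, edgeR adjusted p = 0.0358), and fell by 0.28 ± 0.0588 on the log2 scale with cisplatin (edgeR adjusted p = 0.000533). The order was vancomycin, iohexol, control and cisplatin, and each neighbour in it differed from the next. The call with iohexol was the least firm. It was lost when Control replicate 1, 2 or 3 or Iohexol replicate 1 or 2 was left out (edgeR adjusted p between 0.0962 and 0.139, log2 fold change between 0.26 and 0.34). With the GC offset the rise with vancomycin was 0.61 on the log2 scale (edgeR adjusted p = 1.41e-06). Scaled by total reads alone, the log2 fold change with cisplatin was -0.06 and was not called (edgeR adjusted p = 0.355), while the median of all genes in that fit was 0.23 instead of 0.01.

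GPX1, the abundant cytosolic glutathione peroxidase (chr3:49357171-49358600, minus strand), was at 135, 176 and 183 CPM in the control libraries and at 240, 206 and 134 CPM with iohexol. With cisplatin it was at 205, 222 and 217 CPM, and with vancomycin at 247, 294 and 283 CPM. The cisplatin and vancomycin libraries were all above the control libraries, and the iohexol libraries overlapped with them. The lowest value of the control group and the lowest of the iohexol group were those of the 2 libraries that stood apart. GPX1 rose 1.62-fold with vancomycin (log2 fold change 0.69 ± 0.103, edgeR adjusted p = 3.53e-06) and 1.30-fold with cisplatin (0.38 ± 0.0855, edgeR adjusted p = 0.00101). With iohexol the log2 fold change was 0.25, with a 95% interval of -0.15 to 0.64 (edgeR adjusted p = 0.367). Without Iohexol replicate 3 it was 0.46 and was called (edgeR adjusted p = 0.00242), and without both libraries it was 0.33 (edgeR adjusted p = 0.000316). The GC offset lowered the vancomycin value to 0.44 (edgeR adjusted p = 2.65e-05). In GPX1, 29.3% of the transcript's 31-base stretches also occur in other genes, so part of its reads may not be assigned uniquely. In the order vancomycin, cisplatin, iohexol and control, cisplatin against iohexol and iohexol against control were not called. Vancomycin against cisplatin was called, but 11 of 16 alternative analyses lost this call.

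GPX3, a peroxidase secreted into plasma for which the proximal tubule is the main source (ENSG00000211445, chr5:151020438-151028993, plus strand), rose with every drug. The control libraries were at 43.8, 47.6 and 43.5 CPM. The iohexol libraries were at 110, 93.4 and 89.8 CPM, the cisplatin libraries at 125, 124 and 135 CPM and the vancomycin libraries at 68.0, 80.7 and 72.7 CPM. The 4 groups did not overlap. The rise was 2.84-fold with cisplatin (log2 fold change 1.51 ± 0.0703, edgeR adjusted p = 7.74e-12), 2.20-fold with iohexol (1.14 ± 0.105, edgeR adjusted p = 1.56e-05) and 1.59-fold with vancomycin (0.67 ± 0.0991, edgeR adjusted p = 3.42e-06). Each neighbour in the order cisplatin, iohexol, vancomycin and control differed from the next. Among the drugs, vancomycin thus ranked last in mean CPM for GPX3 and first for the other 3 peroxidases, least firmly for GPX1. The GC offset left 1.41, 1.13 and 0.42, each still called.

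GPX8, a cysteine peroxidase of the endoplasmic reticulum membrane (ENSG00000164294, chr5:55160118-55167071, plus strand), was at 26.7, 28.7 and 28.2 CPM in the control group. It was at 24.2, 23.5 and 26.4 CPM with iohexol, at 17.63, 17.97 and 17.31 CPM with cisplatin and at 63.1, 62.8 and 51.6 CPM with vancomycin. Every vancomycin library was above, and every cisplatin library below, all libraries of the other groups. GPX8 rose 2.06-fold with vancomycin (log2 fold change 1.04 ± 0.109, edgeR adjusted p = 1.84e-08) and fell by 0.66 ± 0.0949 on the log2 scale with cisplatin (edgeR adjusted p = 1.18e-05). With iohexol the log2 fold change was -0.16, with a 95% interval of -0.39 to 0.08 (edgeR adjusted p = 0.338). GPX8 is in the lowest GC bin, whose median log2 fold change with vancomycin was -0.28, and with the GC offset its rise was 1.25. In the order vancomycin, control, iohexol and cisplatin, the neighbours not called different were control and iohexol.

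Compared on a scale per length, the summed level of the 4 peroxidases was 282 ± 23.7 CPM per kb (SD, n = 3) in the control group. It was 352 ± 61.2 with iohexol, 315 ± 11.9 with cisplatin and 508 ± 41.7 with vancomycin. GPX4 made up 51.7% ± 2.85 of it in the control group, 51.4% ± 3.25 with iohexol, 38.0% ± 0.374 with cisplatin and 54.7% ± 0.615 with vancomycin. GPX1 made up 40.7%, 37.8%, 47.7% and 37.7% in the same order of groups. All 3 cisplatin libraries (47.0% to 48.4%) were above all 3 control libraries (37.0% to 43.6%) in the share of GPX1. Which of GPX1 and GPX4 led with cisplatin depended on the length used. Per kb of the gene lengths in the table (1430 and 2019 bases) GPX1 was above GPX4, while in CPM GPX4 was above GPX1 (242 against 215 CPM). Per kb of the longest transcript of each gene (1151 and 1184 bases), an alternative added after seeing the data, GPX4 made up 43.6% with cisplatin and GPX1 39.8%, against 58.5% and 33.6% in the control group. GPX3 made up 5.06% in the control group and 12.8% with cisplatin, and GPX8 between 1.45% and 3.02% in the 4 groups. These shares are descriptions, and no test was run on them. The other members of the family were close to absent: GPX2, the epithelial form of the gut, had between 1 and 8 counts in each library, and GPX5, GPX6 and GPX7 had at most 1, so none of these 4 was tested.

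**Figure D2:**
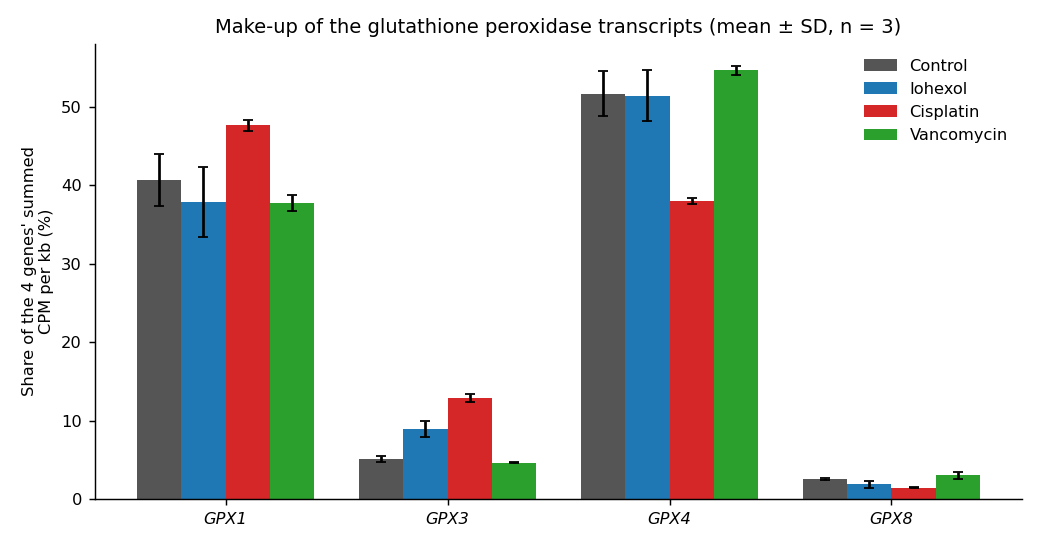
Share of GPX1, GPX3, GPX4 and GPX8 in their summed level per length (vertical axis, percent of CPM per kb) in the 4 groups; bars are means and error bars SD (n = 3). On these gene lengths GPX4 leads in the control (51.7%), iohexol and vancomycin groups and GPX1 in the cisplatin group (47.7%), while per kb of the longest transcripts GPX4 leads with cisplatin as well (43.6% against 39.8%).

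SLC7A11, the cystine and glutamate exchanger of system xc- (ENSG00000151012, chr4:138164097-138242349, minus strand), had the widest range of the 8 genes as a fold between groups. It was at 39.8, 31.7 and 29.4 CPM in the control libraries and at 56.9, 48.9 and 64.2 CPM with iohexol. With cisplatin it was at 11.6, 11.8 and 11.3 CPM, and with vancomycin at 93.2, 75.6 and 72.4 CPM. The 4 groups did not overlap, and the cisplatin libraries had an SD of 0.268 CPM. SLC7A11 rose 2.32-fold with vancomycin (log2 fold change 1.22 ± 0.122, edgeR adjusted p = 9.13e-09) and 1.70-fold with iohexol (0.77 ± 0.137, edgeR adjusted p = 0.00205), and fell 2.91-fold with cisplatin (-1.54 ± 0.121, edgeR adjusted p = 7.26e-09). The order was vancomycin, iohexol, control and cisplatin, as for GPX4, and each neighbour differed from the next. All 17 alternative analyses of each drug kept these 3 calls and their directions, with log2 fold changes of 1.10 to 1.52, 0.66 to 0.91 and -1.64 to -1.32. For cisplatin and vancomycin, leaving out both libraries that stood apart is the same fit as leaving out Control replicate 1. The GC offset, which removes a trend against GC-poor genes in the vancomycin libraries, gave 1.52 for vancomycin.

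AIFM2, the coenzyme Q reductase (ENSG00000042286, chr10:70098223-70132934, minus strand), was at 28.0, 33.6 and 32.9 CPM in the control libraries. It was at 42.9, 44.6 and 31.9 CPM with iohexol, at 59.7, 61.8 and 59.8 CPM with cisplatin and at 44.1, 56.3 and 54.8 CPM with vancomycin. The cisplatin and vancomycin libraries were above all control libraries, while Iohexol replicate 3 lay within the control range. AIFM2 rose 1.91-fold with cisplatin (log2 fold change 0.94 ± 0.0825, edgeR adjusted p = 3.29e-08) and 1.59-fold with vancomycin (0.67 ± 0.114, edgeR adjusted p = 2.27e-05). With iohexol the log2 fold change was 0.36, with a 95% interval of 0.05 to 0.66 (edgeR adjusted p = 0.0945). This comparison was called without Iohexol replicate 3 (0.50, edgeR adjusted p = 0.00193) and with the GC offset (0.35, edgeR adjusted p = 0.00569). AIFM2 was thus higher with cisplatin, where GPX4 and SLC7A11 were lower, and higher with vancomycin together with them. In the order cisplatin, vancomycin, iohexol and control, cisplatin against vancomycin and iohexol against control were not called. With the GC offset its rise with vancomycin was 0.44 (edgeR adjusted p = 0.000377). H2AFY2, on the opposite strand, overlaps AIFM2 and averaged 410.2 counts against 720.7 for AIFM2. The strand setting of the counting is not given, so reads of their shared part cannot be told apart.

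The promoter of AIFM2 is shown because, of the genes with an entry in the RefSeq promoter table (GRCh38.p14, 250 bases before to 50 bases after each start; all but SLC7A11), it alone held the core of the antioxidant response element, the site of NRF2. The letters searched were TGACNNNGC on both strands, and 13.3% of all 35116 promoters of the table hold them. The match is in capitals, on the strand opposite to the motif as spelled, and its first base lies at position -22 relative to the start. The window is chr10:70132776-70133075 on the minus strand.
AIFM2: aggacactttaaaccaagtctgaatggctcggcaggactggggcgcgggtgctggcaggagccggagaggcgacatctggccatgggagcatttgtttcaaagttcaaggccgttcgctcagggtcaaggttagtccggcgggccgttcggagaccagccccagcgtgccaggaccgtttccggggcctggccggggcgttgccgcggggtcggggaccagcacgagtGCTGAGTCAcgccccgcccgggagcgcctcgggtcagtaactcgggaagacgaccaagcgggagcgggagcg
The core of the amino acid response element, the site of ATF4, was searched as TGATGNAA, which 3.62% of the promoters hold, and GPX8 held it on the opposite strand (TTACATCA, first base at position -189). The motifs do not overlap. A match describes the letters of the window and says nothing about binding in these cells.

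ACSL4, the acyl-CoA synthetase that activates arachidonic and adrenic acid (ENSG00000068366, chrX:109624244-109733403, minus strand), had the smallest of the called changes with both cisplatin and vancomycin. The control libraries were at 310, 282 and 266 CPM and the iohexol libraries at 309, 307 and 380 CPM, which overlapped. The cisplatin libraries were at 256, 253 and 251 CPM and the vancomycin libraries at 258, 234 and 206 CPM, all below the control libraries. ACSL4 fell by 0.34 ± 0.0951 on the log2 scale with vancomycin (edgeR adjusted p = 0.00357) and by 0.18 ± 0.0635 with cisplatin (edgeR adjusted p = 0.0243). With iohexol the log2 fold change was 0.23, with a 95% interval of 0.01 to 0.45 (edgeR adjusted p = 0.129). ACSL4 is in the lowest GC bin. With the GC offset the value for vancomycin was -0.05 (edgeR adjusted p = 0.482) and that for cisplatin -0.08 (edgeR adjusted p = 0.0740), so neither was called, and that for iohexol was 0.23 and was called (edgeR adjusted p = 0.00392). The call with cisplatin was also lost when Cisplatin replicate 1, 2 or 3 was left out (edgeR adjusted p between 0.0626 and 0.0898), and without both libraries that stood apart iohexol was called (0.19, edgeR adjusted p = 0.0173). In the order iohexol, control, cisplatin and vancomycin, only control and cisplatin were neighbours called different.

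LPCAT3, the acyltransferase that places polyunsaturated acyl groups into phospholipids (ENSG00000111684, chr12:6976186-7018510, minus strand), was the lowest of the 8 genes in CPM and passed the test with no drug against control. It was at 11.5, 11.4 and 9.47 CPM in the control libraries, at 14.1, 14.0 and 12.4 CPM with iohexol, at 10.2, 10.9 and 10.7 CPM with cisplatin and at 12.9, 10.3 and 14.8 CPM with vancomycin. The iohexol libraries were above the control libraries, and the other groups overlapped with them. In the order iohexol, vancomycin, control and cisplatin, no neighbours were called different. The log2 fold changes were 0.34 with iohexol (95% interval 0.03 to 0.65, edgeR adjusted p = 0.110), -0.03 with cisplatin (-0.30 to 0.24, edgeR adjusted p = 0.864) and 0.19 with vancomycin (-0.13 to 0.52, edgeR adjusted p = 0.304). Without Iohexol replicate 3 the value with iohexol was 0.40 and was called (edgeR adjusted p = 0.0469), and without both libraries that stood apart it was 0.44 (edgeR adjusted p = 0.0218). LPCAT3 overlaps EMG1 and C1S on the opposite strand, which averaged 698.8 and 1268 counts against its own 185.1, and 56.1% of its 31-base stretches also occur in other genes. Its counts are therefore the least certain of the 8.

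**Figure D3:**
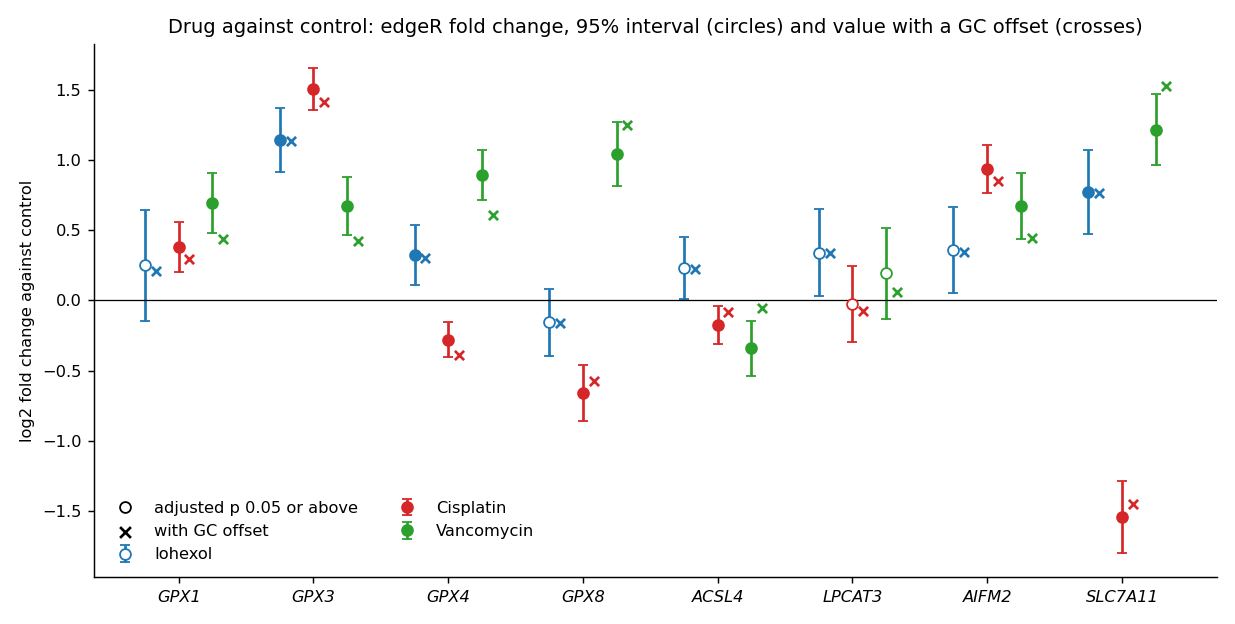
Log2 fold change of each gene against the control group (vertical axis) for the 3 drugs; circles are edgeR values with 95% intervals, filled where the adjusted p is below 0.05, and crosses are the values with the GC offset. SLC7A11, GPX4 and GPX8 lie above 0 with vancomycin and below 0 with cisplatin, GPX3 lies above 0 with every drug, and the ACSL4 values with cisplatin and vancomycin move to -0.08 and -0.05 with the GC offset.

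Set directly against each other in one fit of all 12 samples, cisplatin differed most from each of the other drugs in SLC7A11. Its level with vancomycin was 6.95-fold that with cisplatin (log2 fold change of cisplatin against vancomycin -2.80 ± 0.136, edgeR adjusted p = 8.54e-13), and with iohexol it was 4.90-fold that with cisplatin (2.29 ± 0.136, edgeR adjusted p = 2.50e-11). GPX8 was 3.35-fold (edgeR adjusted p = 1.38e-11) and GPX4 2.32-fold (edgeR adjusted p = 3.10e-10) higher with vancomycin than with cisplatin. GPX3 was higher with cisplatin than with vancomycin (1.73-fold, edgeR adjusted p = 2.26e-07).

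Iohexol and cisplatin differed in 7 of the 8 genes, where 54% of all genes tested were called (27.9% higher with iohexol and 26% lower), and their libraries did not overlap for 7 (60.9% of all genes). GPX4, GPX8, ACSL4, LPCAT3 and SLC7A11 were higher with iohexol, and GPX3 and AIFM2 were higher with cisplatin. GPX4 was 1.5-fold higher with iohexol (edgeR adjusted p = 1.21e-05) and AIFM2 was 1.52-fold higher with cisplatin (edgeR adjusted p = 0.000284). The gene not called was GPX1, with a log2 difference of -0.15 and a 95% interval of -0.46 to 0.15 (edgeR adjusted p = 0.401), which was 0.06 without Iohexol replicate 3. The call of LPCAT3 (0.35, edgeR adjusted p = 0.0418) was lost when Iohexol replicate 1 or 2 or any cisplatin replicate was left out (edgeR adjusted p between 0.0733 and 0.115). It was lost in 10 of 17 alternative analyses, among them DESeq2 (DESeq2 adjusted p = 0.0630) and total reads alone (edgeR adjusted p = 0.191).

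Iohexol and vancomycin differed in 7 of the 8 genes, against 56.6% of all genes (27.6% higher with iohexol and 29% lower), and their libraries did not overlap for 6 (59.4%). GPX1, GPX4, GPX8, AIFM2 and SLC7A11 were higher with vancomycin, and GPX3 and ACSL4 were higher with iohexol. GPX8 was 2.40-fold higher with vancomycin (edgeR adjusted p = 2.12e-09) and SLC7A11 1.42-fold higher (edgeR adjusted p = 0.00140). LPCAT3 was not called, with a log2 difference of 0.09 and a 95% interval of -0.20 to 0.38 (edgeR adjusted p = 0.608). The call of AIFM2 (-0.38, edgeR adjusted p = 0.0118) was lost without Iohexol replicate 3 (-0.24, edgeR adjusted p = 0.0590), without Vancomycin replicate 2 (-0.31, edgeR adjusted p = 0.0549) and with the GC offset (-0.12, edgeR adjusted p = 0.207). It was also lost with total reads alone (-0.17, edgeR adjusted p = 0.242).

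Cisplatin and vancomycin differed in 5 of the 8 genes, against 64.7% of all genes (30% higher with cisplatin and 34.7% lower), and their libraries did not overlap for 6 (71.2%). GPX3 was higher with cisplatin, and GPX1, GPX4, GPX8 and SLC7A11 were higher with vancomycin. The log2 differences that were not called were 0.13 for ACSL4 (95% interval -0.07 to 0.32, edgeR adjusted p = 0.248), -0.26 for LPCAT3 (-0.55 to 0.03, edgeR adjusted p = 0.111) and 0.22 for AIFM2 (-0.02 to 0.47, edgeR adjusted p = 0.104). AIFM2 was called with the GC offset (0.42, edgeR adjusted p = 0.000105), and LPCAT3 was called without Vancomycin replicate 2 (-0.39, edgeR adjusted p = 0.0220). The call of GPX1 (-0.35, edgeR adjusted p = 0.0400) was lost when any cisplatin replicate or Vancomycin replicate 2 or 3 was left out (edgeR adjusted p between 0.0663 and 0.114) and with the GC offset (-0.13, edgeR adjusted p = 0.161). It was lost in 11 of 16 alternative analyses, among them total reads alone (-0.02, edgeR adjusted p = 0.917).

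Further genes of the same pathways were counted from lists chosen by function, also with earlier results of these data known. Among all genes tested, 11.2% rose and 9.77% fell with iohexol, 29.2% rose and 30.6% fell with cisplatin, and 29% rose and 28.8% fell with vancomycin. The counts of each list are to be read against these shares, and nothing is called particular to a list. Scaled by total reads alone, the share of the called genes that were higher was 67.5% in place of 53.4% with iohexol and 68.1% in place of 48.9% with cisplatin.

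Of 12 genes of cystine uptake and glutathione synthesis, 5 rose with iohexol, 6 rose and 3 fell with cisplatin, and 6 rose and 1 fell with vancomycin. SLC3A2, the heavy chain that forms system xc- with SLC7A11, rose with cisplatin from 129 ± 8.94 to 187 ± 10.5 CPM (SD, n = 3, edgeR adjusted p = 2.19e-06), while SLC7A11 itself fell. With vancomycin SLC3A2 reached 253 ± 17.8 CPM (edgeR adjusted p = 3.60e-09). With iohexol the leading genes were CTH, which makes cysteine by transsulfuration (2.74-fold, edgeR adjusted p = 1.55e-05), and CHAC1, which degrades glutathione (2.55-fold, edgeR adjusted p = 0.000348). GCLC, the catalytic subunit of the first step of glutathione synthesis, rose 1.33-fold with cisplatin (edgeR adjusted p = 0.000553) and 1.76-fold with vancomycin (edgeR adjusted p = 4.14e-07). Smaller rises were called in SLC3A2 (1.39-fold, edgeR adjusted p = 0.0105) and GCLC (log2 fold change 0.32, edgeR adjusted p = 0.0486) with iohexol, and in CTH (1.40-fold, edgeR adjusted p = 0.00635) and CHAC1 (log2 fold change 0.43, edgeR adjusted p = 0.0377) with cisplatin. OPLAH, which recycles 5-oxoproline to glutamate, fell from 37.9 ± 9.08 to 18.3 ± 0.798 CPM with cisplatin (edgeR adjusted p = 3.85e-06) and to 21.6 ± 1.39 CPM with vancomycin (edgeR adjusted p = 1.31e-05). The 5 calls with iohexol became 3 without Control replicate 1, 2 or 3 or Iohexol replicate 2, and 2 without Iohexol replicate 1.

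The selenoprotein synthesis list bears on GPX1, GPX3 and GPX4, whose UGA codons were shown above. Of its 10 genes, 1 fell with iohexol, 2 rose and 4 fell with cisplatin, and 4 rose with vancomycin. EEFSEC, the elongation factor that delivers selenocysteine to the ribosome, fell 8.86-fold with cisplatin, from 13.2 ± 1.25 to 1.49 ± 0.568 CPM (edgeR adjusted p = 6.85e-10). LRP8, a receptor that takes up selenoprotein P, fell with cisplatin from 75.7 ± 3.56 to 24.2 ± 1.83 CPM (edgeR adjusted p = 1.68e-11) and with iohexol to 55.4 ± 3.13 CPM (edgeR adjusted p = 0.00664), and rose with vancomycin to 118 ± 3.01 CPM (edgeR adjusted p = 3.31e-06). LRP8 thus fell with cisplatin and rose with vancomycin, as GPX4 did, but differed from it with iohexol. SEPHS2, which makes selenophosphate, rose 1.60-fold with cisplatin (edgeR adjusted p = 7.80e-06) and 1.48-fold with vancomycin (edgeR adjusted p = 0.000241), and TRNAU1AP, a binding protein of the selenocysteine tRNA, rose 1.86-fold with vancomycin (edgeR adjusted p = 4.29e-07). The single call with iohexol became 2 without Iohexol replicate 3 and 3 with the GC offset.

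Of the other selenoproteins, 2 of 14 tested fell with iohexol, 8 rose and 3 fell of 14 with cisplatin, and 7 rose and 4 fell of 15 with vancomycin. The thioredoxin reductase TXNRD1 was at 626 ± 22.7 CPM in the control group, fell to 399 ± 17.8 CPM with iohexol (edgeR adjusted p = 0.000154) and rose to 1412 ± 34.4 CPM with vancomycin (edgeR adjusted p = 2.94e-11). With cisplatin TXNRD1 fell by 0.17 on the log2 scale (edgeR adjusted p = 0.0124), and it was at 0.053 above control with total reads alone (edgeR adjusted p = 0.370). SELENON, a protein of the endoplasmic reticulum, fell with every drug, by 0.73, 0.61 and 0.44 on the log2 scale with iohexol, cisplatin and vancomycin (edgeR adjusted p = 0.00366, 4.60e-06 and 0.000480). SELENOM rose 1.35-fold with cisplatin (edgeR adjusted p = 5.37e-05) and 2.67-fold with vancomycin (edgeR adjusted p = 9.21e-12). The 2 calls with iohexol became 4 with the GC offset and 5 without both libraries that stood apart.

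Of 12 peroxiredoxin, thioredoxin and related antioxidant genes, 1 rose and 2 fell with iohexol, 4 rose and 3 fell with cisplatin, and 9 rose and 1 fell with vancomycin. SOD2, the mitochondrial superoxide dismutase, rose from 275 ± 16.9 to 574 ± 5.26 CPM with iohexol (edgeR adjusted p = 3.14e-06) and to 1578 ± 154 CPM with vancomycin (edgeR adjusted p = 2.77e-16). PRDX5 rose 5.24-fold with vancomycin (edgeR adjusted p = 6.16e-14), and PRDX3, the mitochondrial peroxiredoxin, fell by 0.82 on the log2 scale (edgeR adjusted p = 6.85e-08). PRDX4 and TXN fell with iohexol, by 0.47 and 0.50 on the log2 scale (edgeR adjusted p = 0.00386 and 0.00668), and rose with vancomycin, by 0.42 and 0.76 (edgeR adjusted p = 0.000457 and 5.84e-07). With cisplatin the changes were smaller: SOD1 rose 1.31-fold and PRDX6 1.22-fold (edgeR adjusted p = 8.29e-05 and 0.000459), and PRDX4 was at a log2 fold change of 0.17 (edgeR adjusted p = 0.0353). With vancomycin SOD1 and PRDX6 rose by 0.65 and 0.43 on the log2 scale (edgeR adjusted p = 3.90e-06 and 0.000183). The 3 calls with iohexol became 5 without Iohexol replicate 3, and the 7 calls with cisplatin became 4 without Cisplatin replicate 2 or 3.

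**Figure D4:**
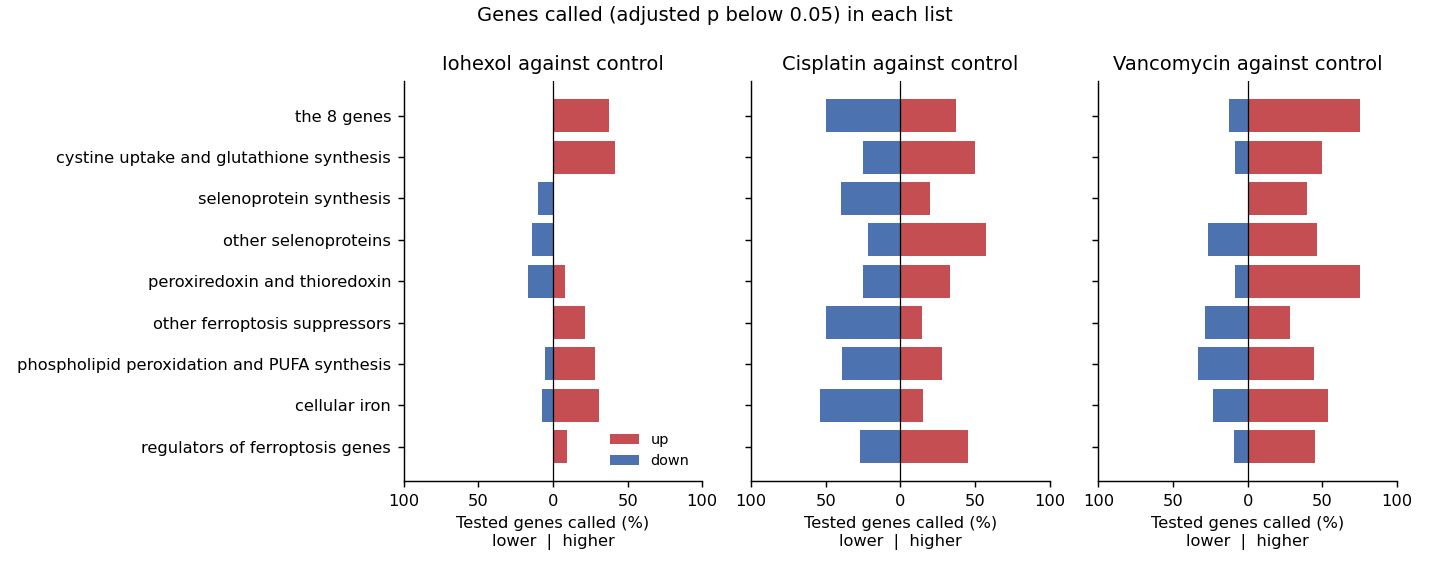
Share of the tested genes of each list that were called higher (to the right of 0) or lower (to the left), in percent, for each drug against the control group; the first row is the 8 genes. With vancomycin 9 of 12 peroxiredoxin, thioredoxin and related antioxidant genes were higher, against 29% of all genes tested. With cisplatin 7 of 14 genes listed as other ferroptosis suppressors and 7 of 13 iron genes were lower, against 30.6% of all genes tested. All lists were chosen with earlier results of these data known.

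Of 14 genes listed as other ferroptosis suppressors, 3 rose with iohexol and 2 rose and 7 fell with cisplatin. With vancomycin 4 rose and 4 fell. DHCR7 is one of them, though it uses up 7-dehydrocholesterol, the sterol that holds ferroptosis back. DHCR7 was counted as risen with iohexol and vancomycin and as fallen with cisplatin. Its calls with iohexol and cisplatin were lost in some analyses that left out a single library. SCD, which makes the monounsaturated fatty acids that replace oxidisable ones, rose from 734 ± 14.2 to 1159 ± 34.7 CPM with iohexol (edgeR adjusted p = 6.51e-05) and fell to 303 ± 18.3 CPM with cisplatin (edgeR adjusted p = 5.24e-12). With vancomycin SCD rose by 0.27 on the log2 scale (edgeR adjusted p = 0.00830). GCH1, which starts tetrahydrobiopterin synthesis, rose 1.59-fold with cisplatin (edgeR adjusted p = 2.34e-05). VKORC1L1, a vitamin K reductase, fell from 114 ± 8.82 to 82.3 ± 1.28 CPM with cisplatin (edgeR adjusted p = 2.11e-05) and to 64.8 ± 2.58 CPM with vancomycin (edgeR adjusted p = 3.70e-08). STARD7, which carries coenzyme Q to the plasma membrane, fell from 177 ± 9.83 to 118 ± 5.92 CPM with vancomycin (edgeR adjusted p = 1.53e-06), and PLA2G6, a phospholipase that removes oxidised acyl chains, rose from 2.94 ± 1.06 to 8.88 ± 1.78 CPM (edgeR adjusted p = 3.40e-06). The 3 calls with iohexol became 1 without Control replicate 2, 5 without Iohexol replicate 3 and 9 with the GC offset, and the 9 calls with cisplatin became 5 without Cisplatin replicate 2.

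The list of phospholipid peroxidation and polyunsaturated fatty acid synthesis stands beside ACSL4 and LPCAT3. Of its 18 tested genes, 5 rose and 1 fell with iohexol, 5 rose and 7 fell with cisplatin, and 8 rose and 6 fell with vancomycin. ACSL1, another long-chain acyl-CoA synthetase, rose 2.34-fold with iohexol (edgeR adjusted p = 2.42e-06) and 1.38-fold with vancomycin (edgeR adjusted p = 0.000147). LPCAT1, a relative of LPCAT3 that makes saturated phosphatidylcholine, fell from 353 ± 7.80 to 95.1 ± 3.58 CPM with cisplatin (edgeR adjusted p = 7.86e-14) and to 201 ± 4.04 CPM with vancomycin (edgeR adjusted p = 4.66e-09), and rose to 432 ± 21.2 CPM with iohexol (log2 fold change 0.31, edgeR adjusted p = 0.0172). The fatty acid elongase ELOVL5 fell by 0.37 on the log2 scale with iohexol (edgeR adjusted p = 0.00638) by 0.71 with cisplatin (edgeR adjusted p = 1.08e-08) and by 0.44 with vancomycin (edgeR adjusted p = 7.88e-05). POR, an oxidoreductase that can start phospholipid peroxidation, rose 1.51-fold with iohexol (edgeR adjusted p = 0.00132), 1.39-fold with cisplatin (edgeR adjusted p = 1.06e-05) and 2.28-fold with vancomycin (edgeR adjusted p = 8.50e-11). Of the plasmalogen genes, TMEM189 rose 2.13-fold (edgeR adjusted p = 1.62e-09) and FAR1 fell by 0.73 on the log2 scale (edgeR adjusted p = 6.09e-07) with vancomycin. With cisplatin FAR1 fell by 0.18 on the log2 scale (edgeR adjusted p = 0.0297), and with total reads alone it was at 0.035 (edgeR adjusted p = 0.671). The 6 calls with iohexol became 11 without Iohexol replicate 3 and 12 with the GC offset.

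Of 13 tested genes of cellular iron, 4 rose and 1 fell with iohexol, 2 rose and 7 fell with cisplatin, and 7 rose and 3 fell with vancomycin. HMOX1, the heme oxygenase that frees iron from heme, rose from 54.1 ± 5.62 to 620 ± 60.0 CPM with vancomycin (11.1-fold, edgeR adjusted p = 4.33e-18) and fell by 0.50 on the log2 scale with cisplatin (edgeR adjusted p = 0.000206). The ferritin light chain FTL rose from 1552 ± 70.6 to 5869 ± 354 CPM with vancomycin (edgeR adjusted p = 4.68e-15). The ferritin heavy chain FTH1 rose 2.01-fold and the transferrin receptor TFRC 1.43-fold with iohexol (edgeR adjusted p = 4.81e-06 and 0.00158). FTH1 also rose 2.21-fold with vancomycin (edgeR adjusted p = 2.03e-11) and fell by 0.31 on the log2 scale with cisplatin (edgeR adjusted p = 7.60e-05), and TFRC rose by 0.25 on the log2 scale with vancomycin (edgeR adjusted p = 0.0156). FTH1 and FTL share 67.6% and 32.4% of their 31-base stretches with other genes, so their reads are assigned with less certainty. STEAP3, an endosomal iron reductase, fell by 0.82 on the log2 scale with iohexol (edgeR adjusted p = 0.000710) and by 1.02 with cisplatin (edgeR adjusted p = 1.70e-08). NCOA4, the ferritin receptor of ferritinophagy, fell by 0.36 on the log2 scale with vancomycin (edgeR adjusted p = 0.00149). The 5 calls with iohexol became 3 without Control replicate 2.

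Of 11 tested regulators of ferroptosis genes, 1 rose with iohexol, 5 rose and 3 fell with cisplatin, and 5 rose and 1 fell with vancomycin. ATF3, a stress transcription factor that can repress SLC7A11, rose from 23.4 ± 1.5 to 72.3 ± 1.90 CPM with cisplatin (edgeR adjusted p = 1.34e-11) and to 83.7 ± 7.20 CPM with vancomycin (edgeR adjusted p = 7.30e-13), while SLC7A11 fell with the former and rose with the latter. SAT1, the polyamine acetyltransferase, rose 2.20-fold with cisplatin (edgeR adjusted p = 2.30e-11) and 3.31-fold with vancomycin (edgeR adjusted p = 1.94e-13). The single call with iohexol was lost without Control replicate 2 or 3, became 2 without Control replicate 1 and 3 with the GC offset.

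Of the list genes described by value above, TXNRD1 and FAR1 with cisplatin changed direction with total reads alone, and no other did in any alternative analysis. The smaller values with iohexol for GCLC, LPCAT1 and SLC3A2, with cisplatin for CHAC1, PRDX4, TXNRD1 and FAR1 and with vancomycin for TFRC lost their call when at least 1 single library was left out. Further calls near the threshold were lost when single libraries were left out, and their values are not given here: SC5D and BACH1 with iohexol without Control replicate 2 or 3, and with cisplatin PSTK without Control replicate 1 or Cisplatin replicate 2, PRDX2 and STARD7 without Control replicate 2 or 3 or any cisplatin replicate, and TFRC without Control replicate 2 or 3 or Cisplatin replicate 1 or 2 (edgeR adjusted p between 0.0534 and 0.191).

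For each of the 8 genes, the 2 genes of the most similar pattern were found by Pearson's r of log2 CPM over the 12 samples, among 17072 others. The samples fall into 4 groups and share scaling and GC trend, so r is a description. GPX4 was closest to NUPR1 (r = 0.998) and VEGFA (r = 0.993), and SLC7A11 to DDX60 (r = 0.994) and RORA (r = 0.993). GPX8 was closest to RCN1 (r = 0.993) and SEC11A (r = 0.992), and GPX1 to MLF2 (r = 0.989) and IL17RC (r = 0.988). ACSL4 was closest to MIER1 (r = 0.987) and ANKRD26 (r = 0.969), AIFM2 to GMPR2 (r = 0.980) and GPANK1 (r = 0.977), and GPX3 to RHOD (r = 0.976) and CARD8 (r = 0.966). LPCAT3 had the least similar neighbours, AP5S1 (r = 0.878) and NPFFR1 (r = 0.855).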

How the data were processed

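Poly-A RNA of 12 HK-2 samples was sequenced. The deposited values are whole-number read counts per gene, made by the authors with fastp, HISAT2 2.0.5 and featureCounts 1.5.0-p3 according to the submitters' processing notes. The notes also name CASAVA 1.8 and DESeq2 1.20.0, and the strand setting is not given in the sources used here. Gene positions matched GENCODE v29 on GRCh38.

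Groups and replicate numbers came from the labels. Genes passed edgeR's filter (minimum count 10, minimum total 15). The test of a drug against control used their 6 samples, and the tests between drugs used 1 fit of all 12 (17073 genes), in edgeR 4.0.16 (TMM, quasi-likelihood test, Benjamini-Hochberg adjustment over all genes tested) in R 4.3.3. Intervals of fold changes are 95% intervals from the quasi-likelihood fit. The steps were tested on simulated data. Alternatives were DESeq2 1.42.0, voom of limma 3.58.1, other scalings and filters, other samples in the fit, a replicate block, and leaving out each library. The GC offset (lowess span 0.3) and leaving out 2 libraries together were added after seeing the data. The 8 genes and all lists were chosen with earlier results of these data known. SOD2 has 2 rows in the table, and the one with more reads was used. From each list, at most 2 risen and 2 fallen genes of smallest p without overlap were eligible to be named, and some of them are not reported here. Where a named gene also passed the test with another drug, that value is in most cases given as well, outside this rule. With 3 samples a group and totals of 14057282 to 18177109 counts, low genes such as LPCAT3 (144 to 241 counts) are the least precise. Replicates differed by more than sampling noise (chi-square per degree of freedom 2.34 to 17.5), and none was a copy of another.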

Additional observations from a re-analysis of the deposited data

How the results depend on the processing

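Over the 6 comparisons, the 8 genes gave 808 values under alternative settings, of which 736 kept their direction and side of the threshold, 42 lost a call, 19 gained one and 11 changed sign. These numbers include repeats. For cisplatin and vancomycin against control, the fit without both libraries that stood apart equals that without Control replicate 1. Of the sign changes, 10 were of values not called in the main analysis: LPCAT3 with cisplatin (0.19 with total reads alone, 0.016 without Control replicate 1, with or without Iohexol replicate 3, and 0.0030 without Control replicate 2), LPCAT3 between iohexol and vancomycin (-0.039 without Vancomycin replicate 2) and between cisplatin and vancomycin (0.074 with total reads alone), GPX1 between iohexol and cisplatin (-0.34 to 0.058 when 1 library was left out, with 0.058 without Iohexol replicate 3, with or without Control replicate 1), and ACSL4 between cisplatin and vancomycin (-0.023 with the GC offset, -0.022 with the GC offset and replicate block). The other was ACSL4 with cisplatin (0.044 with total reads alone, edgeR adjusted p = 0.546). With total reads alone, PRDX2, TXNRD1 and FAR1 with cisplatin changed to 0.025, 0.053 and 0.035. The number of the 8 genes called with iohexol was 3 in the main analysis, 5 with the GC offset, 5 with the GC offset and replicate block, 7 without Control replicate 1 and Iohexol replicate 3, and 2 to 6 when single libraries were left out. For the other 5 comparisons it stayed within 1.5 times the main count.

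All genes called with iohexol numbered 3283 in the main analysis, 2096 with the replicate block, 1849 without Control replicate 2, 2111 without Iohexol replicate 2, 5538 with the GC offset and 5515 without both libraries that stood apart. Scaling by total reads alone moved the median of all genes' log2 fold changes from -0.03 to 0.30 between cisplatin and vancomycin, from 0.02 to 0.22 between iohexol and vancomycin and from -0.00478 to -0.13 between iohexol and cisplatin, and the share of called genes that were higher from 46.4% to 66.4%, from 48.7% to 65.6% and from 51.8% to 41.2%.

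Samples with the same replicate number did not deviate together (correlations between -0.184 and 0.103 over the drug and control pairs), so the numbers were not taken as pairs. With the replicate block, 2, 7 and 7 of the 8 genes were called with iohexol, cisplatin and vancomycin, and GPX4 with iohexol was not (edgeR adjusted p = 0.0902).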
